A study of Mus musculus with 6 samples.

Results

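The transcripts of 10 enzymes of serine synthesis and of the folate one-carbon cycle were followed in mouse neural stem cells (NSCs) that carry a heterozygous mutation of Setd5, which encodes a SET domain protein linked to neurodevelopmental disorders. The enzymes were taken by gene symbol, and all 10 of the 10 symbols were found among the 53110 genes of the deposited table. They are Phgdh, Psat1 and Psph of serine synthesis, Shmt2, Mthfd2, Mthfd1l and Aldh1l2 of the mitochondrial folate arm, and Shmt1, Mthfd1 and Aldh1l1 of the cytosolic arm. RNA-seq was performed on NSCs from the cortex of mouse embryos, which were grown in adhesion on Matrigel with EGF and bFGF at 21% O2. The WT group holds 3 samples of unmodified cells, and the Setd5+/- group holds 3 samples of cells made heterozygous with CRISPR-Cas9. The column names of the table name a single clone, A3, for the Setd5+/- samples, a name that the study's text does not use for its clones, so which clone these values describe is uncertain, and the position of the edit in Setd5 is not given in the sources used here.

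The samples of a genotype differed by little more than counting. The chi-square per degree of freedom of their reads over genes was 1.916 to 1.962 in the 6 comparisons within a genotype and 63.4 to 63.9 in the 9 comparisons between genotypes. Reads came from paired ends, and of the values of 1 to 10 reads 75.05% were even. With reads divided by 2, which by construction lowers the chi-square as much, it was 0.958 to 0.981 and 31.7 to 31.9. The variance over the mean within a genotype did not grow with the level, at 1.94 to 1.99 for genes with a mean of 50 to 5000 reads, and at 2.19 and 1.68 for the 186 and 132 genes above that in WT and Setd5+/-. The 3 samples were therefore counted as 1 library, n is 1 for each genotype, and the intervals below are 95% intervals of counting error alone, with no p-value. Each WT sample held 9995980 to 10004948 reads on genes and each Setd5+/- sample 7143309 to 7146147, and the columns of the 2 genotypes name different indexes and lanes, so that genotype, clone, library and lane cannot be told apart. The targeted gene Setd5 (chr6:113077365-113153435) was at 2676 normalized counts in WT and 2065 in Setd5+/-, or 77.2% of WT, a log2 fold change of -0.37 (interval -0.44 to -0.31). All 9 markers of neural stem cells passed the filter on low values, and Sox2 was at 3119 and 2732 and Nes at 2378 and 1951 normalized counts in WT and Setd5+/-. Of the 9, the counting interval left out 0 for 3 that were higher (Vim, Hes5 and Pax6, at log2 fold changes of 0.60, 0.43 and 0.40) and 5 that were lower. Only Fabp7 was past 2-fold, at 36015 and 11490, and the sum of the 9 markers was 74409 to 74627 in the WT samples and 54027 to 54766 in the Setd5+/- samples.

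As background, cells make serine from the glycolytic intermediate phosphoglycerate in a short chain of reactions. PHGDH oxidises phosphoglycerate, PSAT1 transfers an amino group onto the product, and PSPH removes the phosphate to release serine. Serine hydroxymethyltransferase then passes one carbon unit of serine to tetrahydrofolate, and leaves glycine. This step exists in mitochondria (SHMT2) and in the cytosol (SHMT1). In mitochondria the carbon unit is oxidised by MTHFD2 to formyl-tetrahydrofolate, from which MTHFD1L releases formate for export. In the cytosol the trifunctional enzyme MTHFD1 runs the corresponding reactions and feeds the synthesis of purines and thymidylate. ALDH1L1 in the cytosol and ALDH1L2 in mitochondria burn formyl-tetrahydrofolate to carbon dioxide while making NADPH. Proliferating embryonic cells are known for an active mitochondrial arm, and ALDH1L1 is widely used as a marker of astrocytes and is also found in neural progenitors.

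The promoters of the first partners of the 2 arms are shown because these genes differed in opposite directions between the genotypes. RefSeq promoter windows (GRCm38.p6) of 300 bases, reaching from 250 bases before to 50 after a start site, were matched by symbol for 9 of the 10 enzymes (Aldh1l2 had none), with 2 windows for Psat1. The 250 bases before the start are printed 5′ to 3′ on the strand of the gene, and capitals mark the letters TGANNNNGC on either strand. These letters are a loose form of the core of the antioxidant response element, with the fourth base left free.
Shmt2 (chr10:127522445-127522694, - strand): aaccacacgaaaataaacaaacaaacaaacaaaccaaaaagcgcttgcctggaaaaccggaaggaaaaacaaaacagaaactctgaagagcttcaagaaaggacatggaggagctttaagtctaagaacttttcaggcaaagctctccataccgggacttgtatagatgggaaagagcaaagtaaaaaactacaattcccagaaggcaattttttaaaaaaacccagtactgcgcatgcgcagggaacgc
Shmt1 (chr11:60811266-60811515, - strand): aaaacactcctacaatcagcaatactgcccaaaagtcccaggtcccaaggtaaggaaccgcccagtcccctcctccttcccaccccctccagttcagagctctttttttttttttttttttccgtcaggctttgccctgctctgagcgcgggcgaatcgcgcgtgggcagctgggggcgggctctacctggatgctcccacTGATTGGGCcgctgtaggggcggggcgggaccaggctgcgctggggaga
Mthfd2 (chr6:83317605-83317854, - strand): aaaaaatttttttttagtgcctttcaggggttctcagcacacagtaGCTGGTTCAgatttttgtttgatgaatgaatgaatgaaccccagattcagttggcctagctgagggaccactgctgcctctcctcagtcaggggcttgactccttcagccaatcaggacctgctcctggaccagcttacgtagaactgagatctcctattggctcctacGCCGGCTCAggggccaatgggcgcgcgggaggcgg
Mthfd1 (chr12:76254982-76255231, + strand): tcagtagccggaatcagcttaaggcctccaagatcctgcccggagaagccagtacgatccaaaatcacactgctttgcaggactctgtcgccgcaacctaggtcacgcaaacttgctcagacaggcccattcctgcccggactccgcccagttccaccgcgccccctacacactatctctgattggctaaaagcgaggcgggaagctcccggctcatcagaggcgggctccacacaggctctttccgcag

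Of these 4 windows, Mthfd2 held TGANNNNGC at 2 places, Shmt1 at 1, and Shmt2 and Mthfd1 at none. Over the whole windows, the letters were found in 6 of 10 promoters, those of Phgdh, Psat1 (both windows), Psph, Mthfd2 and Shmt1, or 5 of 9 enzymes. The share was 41.3% of all 32851 promoters of this length and 42.7% of the 13080 of genes past the filter on low values. The letters TGATGNAA, the core of the C/EBP-ATF element, and CACGTG, the E-box, were searched on both strands as well. They were found in 0 of the 10 windows, against 3.97% and 7.15% of all promoters. The shares were 2.16% and 9.76% in promoters of genes past the filter. The windows cover only the nearest 300 bases, and elements inside genes were not searched.

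The 4 enzymes taken for the mitochondrial arm were all higher in Setd5+/- NSCs. Those of the cytosolic arm were all lower, and those of serine synthesis were higher by a smaller amount. Genes count as tested where their mean over the samples reached 10 normalized counts, which held for all 10 enzymes and 16266 genes in all. In none of the 10 enzymes did the samples of the genotypes overlap, with 7 of them higher and 3 lower in Setd5+/-. Of all tested genes, 65.3% did not overlap, 32.4% being higher and 32.9% lower. Differences of at least 2-fold were found in 8 of the 10 enzymes, against 16.9% of tested genes. Of these, 6 enzymes were higher (10.6% of tested genes) and 2 lower (6.34%). The counting interval left out 0 for all 10 enzymes (65.1% of tested genes), 7 of them higher (32.5%) and 3 lower (32.6%). The median log2 fold change was 2.21 over the 4 mitochondrial enzymes, 1.06 over the 3 of serine synthesis and -1.35 over the 3 cytosolic enzymes, beside -0.02 over all genes tested.

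**Figure D1:**
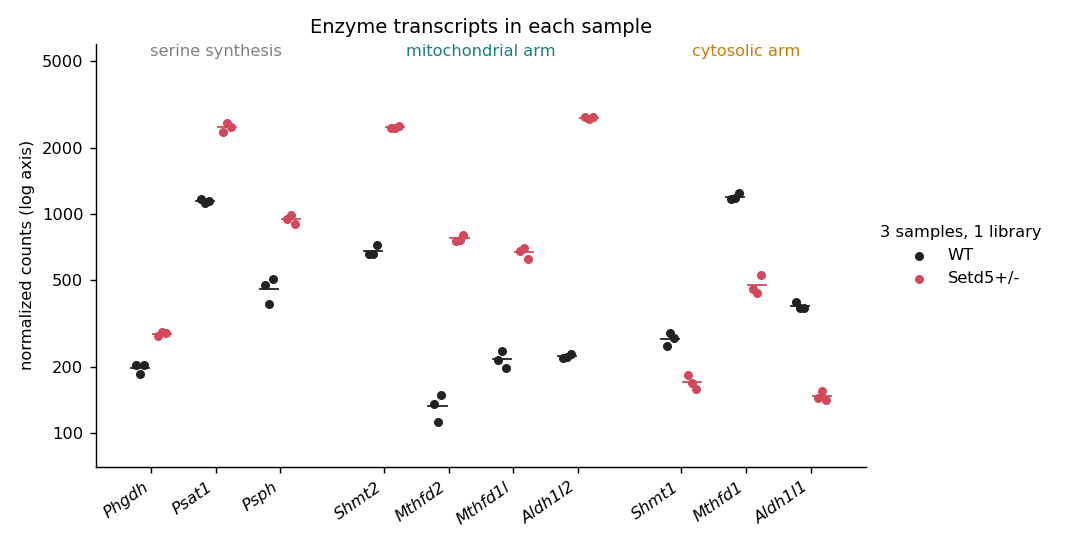
Normalized counts on a log axis of the 10 enzymes in each of the 3 WT (black) and 3 Setd5+/- (red) samples, with a bar at the mean of each genotype. The 3 samples of a genotype were counted as 1 library, and the groups do not overlap in any enzyme: the red points lie above the black ones in serine synthesis and the mitochondrial arm and below them in the cytosolic arm.

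In serine synthesis, Psat1, which encodes the aminotransferase of the chain, had the highest level per kb in both genotypes. Psat1 (chr19:15904678-15947337) read 1179, 1122 and 1150 normalized counts in WT, and 2369, 2616 and 2502 in Setd5+/-. The gap between the genotypes was thus several times the spread within either. The level was 2.17-fold higher (interval 2.05 to 2.29), a log2 fold change of 1.12.

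Psph, which encodes the phosphatase that completes serine synthesis (chr5:129765558-129787449), was at 475, 387 and 507 normalized counts in WT and at 953, 996 and 902 in Setd5+/-. Its groups were apart by more than the spread of the samples, and the log2 fold change was 1.06 (interval 0.93 to 1.18). This value lies close to the 2-fold line, and without WT replicate 2, the lowest of the 3, it was 0.95. The principal transcript of Psph shares 23.9% of its 50-base stretches with Cct6a, a chaperonin gene that overlaps it on the other strand, and whose level went the other way, from 1875 to 1286 normalized counts.

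Phgdh, which encodes the first enzyme of the chain (chr3:98313170-98339990), differed least within serine synthesis. Its samples read 204, 186 and 205 normalized counts in WT, and 277, 288 and 285 in Setd5+/-. The log2 fold change was 0.51 (interval 0.31 to 0.72), under the 2-fold line. The counts of Phgdh are uncertain, because 63.1% of the 50-base stretches of its principal transcript also occur in transcripts of 23 other genes, most of them in the pseudogene Gm7901. Of these 23 genes, 19 are in the table and 11 carried reads. Their summed level was 643 normalized counts in WT and 1115 in Setd5+/-, above that of Phgdh itself, and Gm7901 alone was at 579 and 1019. With their reads added to those of Phgdh, an alternative chosen after seeing the data, the log2 fold change was 0.73.

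In the mitochondrial arm, the formyl-tetrahydrofolate dehydrogenase gene Aldh1l2 differed most. Aldh1l2 (chr10:83487450-83534140) was at 221, 223 and 229 normalized counts in WT and at 2787, 2722 and 2789 in Setd5+/-. Its lowest Setd5+/- sample was thus more than 10 times as high as its highest WT sample. The level was 12.3-fold higher (interval 11.1 to 13.6), a log2 fold change of 3.62, and 149 of the 16266 tested genes had a larger one. D10Wsu102e, a gene on the other strand that shares 16.8% of the 50-base stretches of Aldh1l2, was at 530 and 862 normalized counts, a log2 fold change of 0.70.

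Mthfd2 encodes the mitochondrial dehydrogenase and cyclohydrolase that is known for its high level in embryonic and transformed cells. Mthfd2 (chr6:83305691-83325908) was at 136, 112 and 149 normalized counts in WT and at 757, 765 and 804 in Setd5+/-. All Setd5+/- samples were about 5 times as high as the highest WT sample or more. Its level was 5.86-fold higher (interval 5.10 to 6.74), a log2 fold change of 2.55.

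Shmt2, which encodes the mitochondrial enzyme that takes the carbon unit from serine (chr10:127517123-127522444), was at 660, 657 and 725 normalized counts in WT and at 2468, 2483 and 2522 in Setd5+/-. The Setd5+/- samples lay within a narrow range far above WT. The log2 fold change was 1.87 (interval 1.78 to 1.97). Mthfd1l, which encodes the synthetase that releases formate in mitochondria (chr10:3973118-4167081), was at 216, 236 and 199 normalized counts in WT and at 682, 698 and 627 in Setd5+/-. Its log2 fold change of 1.63 (interval 1.45 to 1.80) was the smallest of this arm, though still above 3-fold at 3.09.

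In the cytosolic arm, all 3 transcripts were lower. Mthfd1, which encodes the trifunctional enzyme (chr12:76255298-76319803), was at 1178, 1186 and 1245 normalized counts in WT and at 455, 435 and 527 in Setd5+/-. The Setd5+/- samples all lay far below the lowest WT sample. The log2 fold change was -1.35 (interval -1.48 to -1.22). Aldh1l1, which encodes the cytosolic formyl-tetrahydrofolate dehydrogenase (chr6:90486427-90600203), was at 396, 374 and 372 normalized counts in WT and at 144, 156 and 142 in Setd5+/-. Its log2 fold change was -1.37 (interval -1.60 to -1.14), which does not differ from that of Mthfd1 beyond the counting error.

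Shmt1, which encodes the cytosolic hydroxymethyltransferase (chr11:60788104-60811718), differed less. It was at 250, 286 and 272 normalized counts in WT and at 185, 169 and 158 in Setd5+/-, so that the groups stayed apart but under 2-fold. The log2 fold change was -0.66 (interval -0.89 to -0.43). Smcr8, which overlaps Shmt1 on the other strand and shares 4.81% of its 50-base stretches, was higher in Setd5+/-, with a log2 fold change of 0.44, and the antisense gene Gm15756 at Aldh1l1 was lower, with a log2 fold change of -1.60. Mthfd1, Mthfd2 and Mthfd1l shared no 50-base stretch with another gene.

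**Figure D2:**
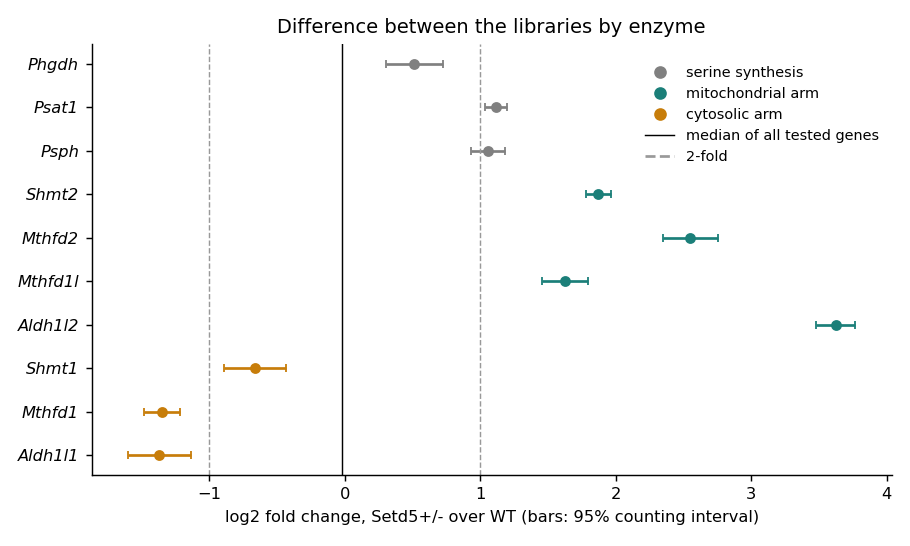
Log2 fold change of each enzyme (Setd5+/- over WT) with its 95% counting interval, with the serine synthesis enzymes in grey, the mitochondrial arm in green and the cytosolic arm in orange. The solid line is the median of all tested genes at -0.02 and the dashed lines are 2-fold. The mitochondrial arm lies between 1.63 and 3.62 and the cytosolic arm between -1.37 and -0.66.

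The partners were then compared with each other, since the difference of 2 log2 fold changes depends on neither gene length nor library scaling. All 4 pairs differed in favour of the mitochondrial enzyme in Setd5+/-. The ratio of Aldh1l2 to Aldh1l1 was 31.8-fold higher in Setd5+/- than in WT (interval 26.3 to 38.5), a difference of 4.99 on the log2 scale. The ratio of Mthfd2 to Mthfd1 was 14.9-fold higher (interval 12.6 to 17.6), a difference of 3.90. The pair of Mthfd1l and Mthfd1 differed by 2.97 (interval 2.76 to 3.19) and the pair of Shmt2 and Shmt1 by 2.53 (interval 2.28 to 2.78). The intervals of the last 2 pairs overlap narrowly, while those of Aldh1l2 with Aldh1l1 and of Mthfd2 with Mthfd1 overlap with no other. Mthfd1 enters 2 of the pairs, which are therefore not independent.

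The partners are related in sequence, but no stretch as long as 50 bases was shared between the transcripts of a pair. Of the aligned coding bases, 67.4% were identical between Shmt2 and Shmt1, 65.2% between Mthfd2 and Mthfd1, 68.3% between Mthfd1l and Mthfd1, and 72.7% between Aldh1l2 and Aldh1l1. The longest runs found in both coding sequences of a pair, at any position, had 19, 14, 20 and 22 bases. They are printed here in the same order from the transcripts of GENCODE M21 (GRCm38).
Shmt2 and Shmt1: cccaagactggcaaagaga
Mthfd2 and Mthfd1: cccatgaccgtggc
Mthfd1l and Mthfd1: ggaacgatgagcacaatgcc
Aldh1l2 and Aldh1l1: ctcaacgtgctccccttctgca

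Levels between genes were compared as normalized counts per kb of the principal transcript, where the order of the enzymes also differed between the libraries. In WT the highest were Psat1 at 440 normalized counts per kb, Mthfd1 at 371 and Shmt2 at 297, and the lowest was Aldh1l2 at 37.2. In Setd5+/- the highest were Shmt2 at 1088 and Psat1 at 954, and the lowest were Shmt1 at 59.7 and Aldh1l1 at 35.3. With merged exon lengths, Mthfd1 and Psat1 had nearly the same level in WT, at 271 and 270, and Shmt2 was again the highest in Setd5+/-. Some neighbours in the order by principal transcript did not differ beyond their counting error. In WT these were Phgdh at 105 and Shmt1 at 94.4, Shmt1 and Aldh1l1 at 91.1, and Mthfd2 at 63.4 and Mthfd1l at 58.8. In Setd5+/- they were Phgdh at 150 and Mthfd1 at 146. The intervals of Shmt2 and of Psph at 263 in WT only touched, at 281 to 314 and 246 to 281. Summed over all 10 enzymes, the level per kb was 2.19-fold higher in Setd5+/-, at 3993 against 1821.

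On this scale the mitochondrial enzymes made up 45.1% of the transcripts of the 7 arm enzymes in WT (interval 43.7 to 46.4) and 89.7% in Setd5+/- (interval 89.1 to 90.3). Shmt2 already dominated its pair in WT, with a share of 75.9%, and reached 94.8% in Setd5+/-. Aldh1l2 was the minor partner in WT, with 29.0% (interval 26.6 to 31.6), and the major one in Setd5+/-, with 92.9% (interval 91.8 to 93.8). Mthfd2 went from 14.6% to 71.8% of its sum with Mthfd1, and Mthfd1l from 13.7% to 55.5%. With the merged exon length of each gene, an alternative chosen after seeing the data, the mitochondrial share of all 7 was 44.2% and 89.4%.

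**Figure D3:**
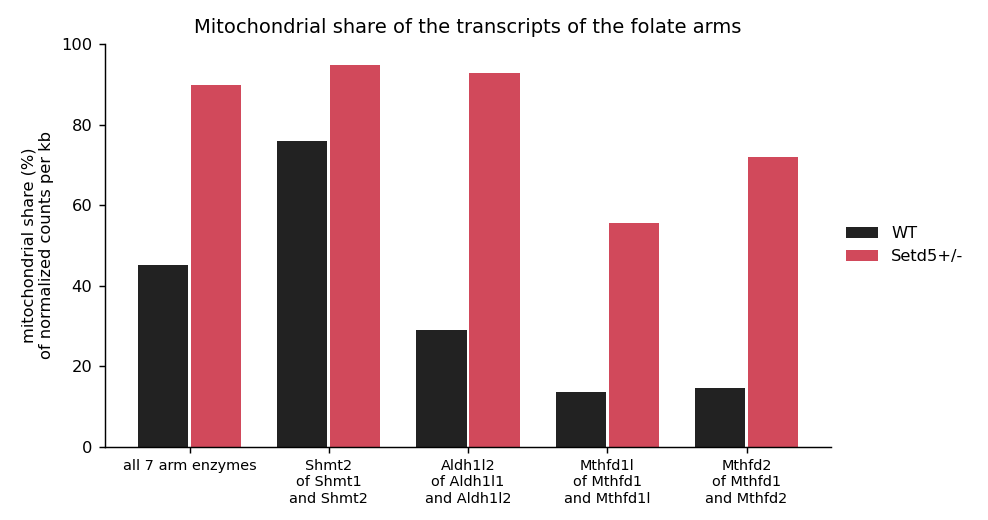
Share (%) of the mitochondrial enzymes in the normalized counts per kb of all 7 arm enzymes and of each pair of partners, in WT (black) and Setd5+/- (red). The share is higher in Setd5+/- in all 5 groups of bars, and exceeds 50% there in each, against only Shmt2 in WT.

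The other genes of the pathway did not show a common direction. Of 55 further genes in 7 lists, 43 passed the filter, of which 3 were at least 2-fold higher and 3 at least 2-fold lower, beside 10.6% and 6.34% of all tested genes. Their median log2 fold change was 0.14. In the folate cycle, 8 of 11 genes passed the filter, with a median of 0.01. Among them Mthfd2l, a relative of Mthfd2 that is not one of the 10 enzymes, was lower in Setd5+/-. It was at 222 normalized counts in WT and 171 in Setd5+/-, a log2 fold change of -0.37 (interval -0.61 to -0.14). Before division by length, this was above Mthfd2 in WT, at 132, and below Mthfd2 in Setd5+/-, at 775. The mitochondrial shares given above do not include Mthfd2l.

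Among transporters of folate and serine, 8 of 10 passed the filter, with a median log2 fold change of 0.19. Slc1a4, a carrier of serine and other small neutral amino acids, was highest at 1.31, at 1385 normalized counts in WT against 3431 in Setd5+/-. Sfxn2, of the sideroflexin family of mitochondrial carriers, was lowest at -0.67, from 108 to 68.3. Of genes that use serine, 8 of 9 passed the filter, with a median of 0.13. Here Cth, which makes cysteine in transsulfuration, was highest at 1.09, with 44.7 and 94.9 normalized counts, and the serine dehydratase-like gene Sdsl was lowest at -0.59, with an interval that includes 0 (-1.45 to 0.27).

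The glycine cleavage system, which draws further carbon units from glycine in mitochondria, had no gene past 2-fold higher. Of its list, 6 of 7 genes passed the filter, with a median log2 fold change of 0.20. The decarboxylase Gldc was at 0.28, the aminomethyltransferase Amt at 0.28, and Sardh, which demethylates sarcosine, at 0.24. The lipoyl carrier protein Gcsh was at -1.01, the only one of the list past 2-fold, and at -0.97 with the median outside chromosome 1 set to 0. For Dld at -0.03 and for Mtfmt at 0.15, which formylates the initiator tRNA of mitochondria, the intervals included 0.

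In purine synthesis, a user of cytosolic formyl-tetrahydrofolate, all 6 genes passed the filter and none was past 2-fold, with a median log2 fold change of -0.10. Gart was at -0.78, Paics at -0.59 and Adsl at -0.27, all lower with intervals that left out 0. Pfas at 0.28 and Atic at 0.47 were higher, and Ppat at 0.07 had an interval that included 0. Atic lies on chromosome 1, whose tested genes had a median of 0.54 as a whole, and no enzyme of the 10 lies on that chromosome.

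In the methionine cycle, 5 of 9 genes passed the filter and none was past 2-fold, with a median log2 fold change of 0.08. Mat2a at 0.18 and Mat2b at 0.27, which make S-adenosylmethionine, were higher, Ahcyl1 at -0.89 was lower, and Ahcyl2 at 0.08 and Ahcy at -0.13 had intervals that included 0. The level of Ahcy is uncertain, since 74.1% of the 50-base stretches of its principal transcript occur in Gm4737 as well. Of the 3 transcription factors known at serine and one-carbon genes, Atf4 was at 1372 and 2162 normalized counts, a log2 fold change of 0.66. Myc was at 919 and 224, a log2 fold change of -2.04. Mycn was under the filter, with 2 reads in WT and 30 in Setd5+/-.

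**Figure D4:**
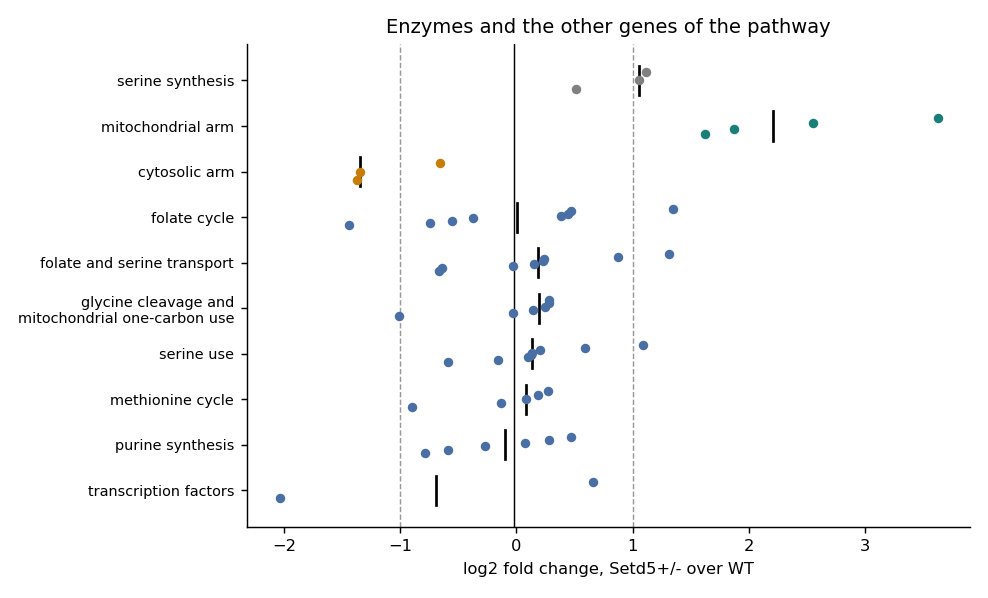
Log2 fold change (Setd5+/- over WT) of each enzyme and of each other pathway gene that passed the filter, in rows by list, with a black bar at the median of each list, a thin line at the median of all tested genes and dashed lines at 2-fold. The medians of the lists in blue lie between -0.69 and 0.20, and those of serine synthesis, the mitochondrial arm and the cytosolic arm at 1.06, 2.21 and -1.35.

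The nearest tested gene on each side of each enzyme was taken, which gave 20 neighbours with a median log2 fold change of -0.18. Of these, 3 were at least 2-fold higher and 3 lower, beside 10.6% and 6.34% of all tested genes. Beside the mitochondrial enzymes, the counting interval left out 0 for 5 higher and 1 lower of 8 neighbours, with a median of 0.40. Beside the cytosolic enzymes it did so for 2 higher and 1 lower of 6, with a median of -0.18, and beside those of serine synthesis for 1 higher and 5 lower of 6, with a median of -0.45. Of all tested genes, the interval left out 0 for 65.1%, with 32.5% higher and 32.6% lower. Each group holds only 6 or 8 neighbours, and the part of position in the values of the enzymes was not tested. The mitochondrial enzymes Shmt2, Mthfd1l and Aldh1l2 all lie on chromosome 10, whose 807 tested genes had a median of 0.00. Nxph4, which lies 3.03 kb from Shmt2, was at 1.66 and 29.4 normalized counts, a log2 fold change of 4.15 (interval 2.47 to 5.83). Its WT level was under 10 normalized counts, so it passed the filter only through Setd5+/-. Slc41a2, the neighbour of Aldh1l2 at 150 kb, was at 1.08. Mob1a, which lies 0.108 kb from Mthfd2, was at 0.34, and Akap5, which lies 5.09 kb from Mthfd1, was at -1.53. Gm12611, which lies 4.66 kb from Shmt1 and shares 1.21% of the 50-base stretches of Psat1, was at 284 and 751 normalized counts, a log2 fold change of 1.40, opposite to that of Shmt1.

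The libraries also differed in markers of other cells and of proliferation. In bulk RNA, fewer cells of a type and less RNA per cell cannot be told apart. Neuron markers had a summed level of 367 to 399 normalized counts in the WT samples and 73.9 to 88.1 in the Setd5+/- samples, and Dcx and Syt1 were at least 2-fold lower of the 3 that passed the filter. Rbfox3 and Stmn2 had 0 reads in Setd5+/-. Of the 6 astrocyte markers, 5 passed the filter, and Gfap (17.1 and 263 normalized counts), S100b and Aqp4 were at least 2-fold higher while Slc1a2 was lower. The 6 astrocyte markers summed to 10789 to 10924 in WT and 9752 to 9818 in Setd5+/-. In the oligodendrocyte lineage, 7 of 7 markers passed the filter, Sox10 (298 and 1.59) and Mbp were at least 2-fold lower, and the sum was 40994 to 41786 in WT and 23688 to 24533 in Setd5+/-.

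Of 8 proliferation genes, Pcna and Mcm5 were at least 2-fold lower and none was 2-fold higher, with a summed level of 6844 to 6976 in WT and 7392 to 7541 in Setd5+/-. The counting interval left out 0 for 3 that were higher (Ccnb1, Top2a and Mki67, at log2 fold changes of 0.58, 0.52 and 0.35). It also left out 0 for 4 that were lower (Pcna, Mcm5, Mcm2 and Mcm3). Of the 4 microglial markers, Cx3cr1 and Tyrobp had 0 reads in both libraries, Aif1 had 3 in WT and 11 in Setd5+/-, and Csf1r passed the filter at 98.0 and 53.6 normalized counts. Endothelial and mesenchymal markers summed to at most 4.14 and 19.1 normalized counts in any sample. The part of these other differences in the values of the enzymes was not tested.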

How the data were processed

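RNA-seq of NSCs at 21% O2 was analysed, with 3 WT and 3 Setd5+/- samples. The authors trimmed reads with Trimmomatic, aligned them with Bowtie2 to mm10 and divided the count of each gene by a DESeq2 size factor, and they deposited these normalized counts. The counting program, its use of strand and the tool versions are not given in the sources used here. Fold changes and p-values of the authors' own comparison stand in the same table and were not used.

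The deposited values had lost their decimal points. A point was put back at the place that gave whole reads (within 1e-05), and in 1116 genes the deposited mean decided; 0 genes remained unresolved and 672 carried no values. This step, the intervals and limma were tested on simulated data. The log2 fold change is the ratio of mean normalized counts. Its 95% counting interval takes the variance as 1.96 times the reads, as measured within genotypes. Reads were paired-end, and most low counts were even; whether both ends of a pair were counted is not given. With 1 library for each genotype, no p-value is given, and no count model was run. The filter was a mean of at least 10 normalized counts. Transcripts and positions are from GENCODE M21 (GRCm38, the mm10 build), and promoters from RefSeq. Alternatives used limma 3.58.1 in R 4.3.3.

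Named were all 10 enzymes, Setd5, in each pathway list the genes with the highest and the lowest log2 fold change past the filter (all in lists of 6 or fewer past it), and chromosome neighbours. Some genes that this rule picks are not reported here. Mthfd2l, markers, overlapping genes and those sharing sequence were named after their values were seen. The enzymes and lists were chosen with earlier results of these data known.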

Additional observations from a re-analysis of the deposited data

How the results depend on the processing

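Of the 101 values of single enzymes under 11 alternatives (a pseudocount of 1, 3 other scalings, leaving out any 1 of the 6 samples and the reads of related genes added to Phgdh), 100 stayed within the counting interval of the reported value, 1 moved and 0 reversed. The one that moved was Phgdh with the reads of the related genes added, at 0.73. The other scalings shifted every log2 fold change by -0.04 (total reads), -0.02 (upper quartile) or 0.04 (median outside chromosome 1 set to 0). The 28 values of the partner differences, with the pseudocount or without 1 sample, stayed within their intervals.

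Leaving out 1 sample gave Phgdh 0.47 to 0.54, Psat1 1.08 to 1.15, Psph 0.95 to 1.14, Shmt2 1.85 to 1.92, Mthfd2 2.44 to 2.65, Mthfd1l 1.57 to 1.69, Aldh1l2 3.61 to 3.64, Shmt1 -0.72 to -0.61, Mthfd1 -1.43 to -1.29 and Aldh1l1 -1.41 to -1.34. Without WT replicate 2, 5 enzymes instead of 6 were at least 2-fold higher. The medians were 0.95 to 1.12 (serine synthesis), 2.14 to 2.28 (mitochondrial arm) and -1.36 to -1.29 (cytosolic arm). The differences were 2.46 to 2.60 for Shmt2 and Shmt1, 3.80 to 3.97 for Mthfd2 and Mthfd1, 2.89 to 3.10 for Mthfd1l and Mthfd1, and 4.95 to 5.05 for Aldh1l2 and Aldh1l1. Since these samples are parts of 1 library, the ranges show counting error only. Genes at least 2-fold higher numbered 1734 to 1764 and lower 1037 to 1073.

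The counts over all genes, 1719 higher and 1032 lower, became 3198 and 2027 with no filter beyond reads in both libraries, 1044 and 596 with a mean of at least 50, and 3240 and 2565 at 1.5-fold, where fewer or more genes are admitted by construction. In the pathway lists, the 3 lower became 2 with the median outside chromosome 1 set to 0 (Gcsh, at -0.97), the 3 higher became 5 with no filter, and 6 higher and 10 lower were found at 1.5-fold. limma (adjusted p under 0.05) called 4935 genes higher and 5028 lower, which is 61.3% of tested genes and includes all 10 enzymes. With the replicate block it called 4934 and 5012, again with all 10. These calls compare the reads of the 2 libraries and not the genotypes. Deviations of same-numbered samples correlated at -0.001 to -0.03 over genes, so the numbers do not pair the samples.

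Depth does not limit these enzymes, each with at least 371 reads in a library. The differences between cultures and between clones of a genotype were not measured. Strand of counting is not given, so reads of genes that overlap on opposite strands cannot be separated.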
